A study of Dichotomyctere nigroviridis with 22 samples.

Results

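The ovary of the green-spotted puffer after an injection of PNX-14 was compared with the ovary after the vehicle alone, across all genes of the ovary read count table. These were the 10 ovary libraries among the 22 libraries of the study, which sequenced RNA of hypothalamus and ovary. The 5 libraries of treated fish carried the numbers 2 to 6 and the 5 control libraries the numbers 1, 2, 3, 5 and 6. Values of single ovaries are given by rising number within a group, controls first. The dose of PNX-14 was 100 ng per g of body weight, given into muscle, and all ovaries were taken 24 h after injection. The sources differ on the vehicle (saline or sterile water), on the mean body weight and on whether whole ovaries or biopsies were taken. All fish were mature, vitellogenic females of wild origin held in saltwater, and no strain is given. The design text counts fish and ovaries alike, but the labels do not say how a library maps to a fish, so p-values measure the spread between these libraries. Of 19346 genes in the table, 14777 had enough reads to be tested.

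Phoenixin is a peptide cut from the protein SMIM20, and in rodents its proposed receptor is GPR173 and it strengthens the response of the pituitary to gonadotropin-releasing hormone. PNX-14 is its shorter active form. A vitellogenic teleost ovary holds oocytes that take up yolk precursors from the blood through receptors at their surface, store maternal RNA and protein, and lie inside an egg envelope built of zona pellucida proteins. Around each oocyte lie granulosa and theca cells, which make steroids, and between the follicles lies a stroma with vessels, smooth muscle, matrix and immune cells.

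The libraries held 11756975 to 15735216 counted reads each. Genes that mark the organ were abundant: per length, zp3f.1, an egg envelope protein, averaged 4825 FPKM over the 10 ovaries, zp2l2 3717 and zpax1 3436 FPKM. Neither the gene for the receptor gpr173 nor gnrh2, a gonadotropin-releasing hormone, had enough reads to be tested. In CPM, the count scaled to library size after TMM normalisation, the level of gnrh2 was 0.307, 0.453, 0.652, 0.163 and 0.185 CPM in control ovaries and 0.624, 0.831, 1.30, 0.681 and 1.64 CPM in treated ovaries, with overlap. The level of gpr173 was 0.383, 0.362, 0.733, 0.163 and 0.618 CPM in control ovaries and 0.0891, 0, 0.0765, 0.372 and 0.624 CPM in treated ovaries, also with overlap. Because whole tissue was sequenced, fewer cells of a type and less RNA per cell cannot be told apart anywhere in these data.

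With edgeR's quasi-likelihood test, 2 genes passed a Benjamini-Hochberg adjusted p of 0.05, or 0.0135% of the genes tested. They were trpm1b, a cation channel gene, and a gene named safb (ENSTNIG00000003883), after a factor that binds the nuclear scaffold, both higher after PNX-14. DESeq2 called 31 genes, 24 of them higher. At an unadjusted p under 0.05, 599 genes (4.05% of those tested) were higher and 581 (3.93%) lower. In 113 genes (0.765%) every treated ovary was above every control ovary, and in 103 (0.697%) every treated ovary was below. The median log2 fold change of all genes tested was -0.02. Every gene described below other than trpm1b and safb missed the adjusted threshold with edgeR, with an adjusted p of 0.359 or more, so its values are given as levels and differences and not as a call. The adjusted p given beside a gene is that of edgeR's quasi-likelihood test over all genes tested, and SE is the standard error of the log2 difference.

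The genes next in order were mostly abundant ovary genes with a moderate difference. Among the 30 genes with the smallest p after trpm1b and safb, 23 were higher after PNX-14 and 7 lower. In 23 of the 30 the groups did not overlap, as in 0.765% (higher) and 0.697% (lower) of all genes tested. The 30 were picked by p in this same comparison, so groups without overlap follow largely from that choice. First was slc26a2, which carries sulfate into cells for the sulfation of matrix glycans. Its level was 61.3, 90.4, 75.7, 70.8 and 91.1 CPM in control ovaries and 132, 148, 105, 129.8 and 151 CPM in treated ovaries, a log2 difference of 0.77 (SE 0.15, adjusted p = 0.359). The lowest treated ovary, number 4, lay above the highest control. The raft protein gene rftn2 was at 75.9, 93.4, 72.6, 74.2 and 72.4 CPM in controls and 163, 136, 96.9, 124.3 and 139.7 CPM after PNX-14, a difference of 0.76 (SE 0.14, adjusted p = 0.359). Again treated ovary 4 was the lowest of its group and still above every control. The gene pkp2, for plakophilin 2 of the desmosome, was at 49.99, 47.4, 36.9, 50.4 and 33.8 CPM and 70.6, 77.2, 75.7, 64.5 and 77.7 CPM, a difference of 0.74 (SE 0.14, adjusted p = 0.359), and here the treated ovaries were closely spaced.

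A gene for an insulin receptor substrate was among them. The files name it isr2a and match it to insulin receptor substrate 2-A, the adaptor that passes the signal of insulin and IGF receptors to PI3 kinase. It was at 208, 256, 196, 207 and 239 CPM in control ovaries and at 347, 443, 290.1, 383 and 335 CPM in treated ovaries, a log2 difference of 0.70 (SE 0.14, adjusted p = 0.359). Treated ovary 3 was highest and ovary 4 lowest, with no overlap between groups. The peroxisomal protease gene lonp2 was at 245, 322, 232, 226 and 232 CPM in controls and 423, 487, 359, 341 and 478 CPM after PNX-14, a difference of 0.73 (SE 0.15, adjusted p = 0.359). Control ovary 2 stood apart from the other controls for lonp2, and the lowest treated ovary, number 5, was above it.

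Genes of secretion and protein synthesis followed. For tango6, a gene of Golgi transport, the levels were 151, 173, 164, 141 and 155 CPM in controls and 250.2, 312, 186, 244 and 257 CPM after PNX-14, a log2 difference of 0.67 (SE 0.14, adjusted p = 0.359). For aars1, which charges the tRNA of alanine, they were 218, 207, 233, 199.6 and 171 CPM and 309, 326, 257, 284 and 317 CPM, a difference of 0.54 (SE 0.12, adjusted p = 0.562). Both kept the groups apart, and treated ovary 4 was again the lowest of its group. The log2 difference was 0.55 for focad, which codes for focadhesin, 0.67 for the ubiquitin ligase gene rnft1, 0.61 for cyb561, a cytochrome that reduces with ascorbate, and 0.56 for slc33a1, which carries acetyl-CoA into the endoplasmic reticulum. Of this order too were cpdp, a photolyase that repairs DNA (0.52), exosc5 of the RNA exosome (0.76), ell, an elongation factor of RNA polymerase II (0.55), the TRIM genes trim25l (0.67) and trim45 (0.69), and ncdn, the gene of neurochondrin (0.69). Groups were apart in all of these but trim45 and ncdn.

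**Figure D1:**
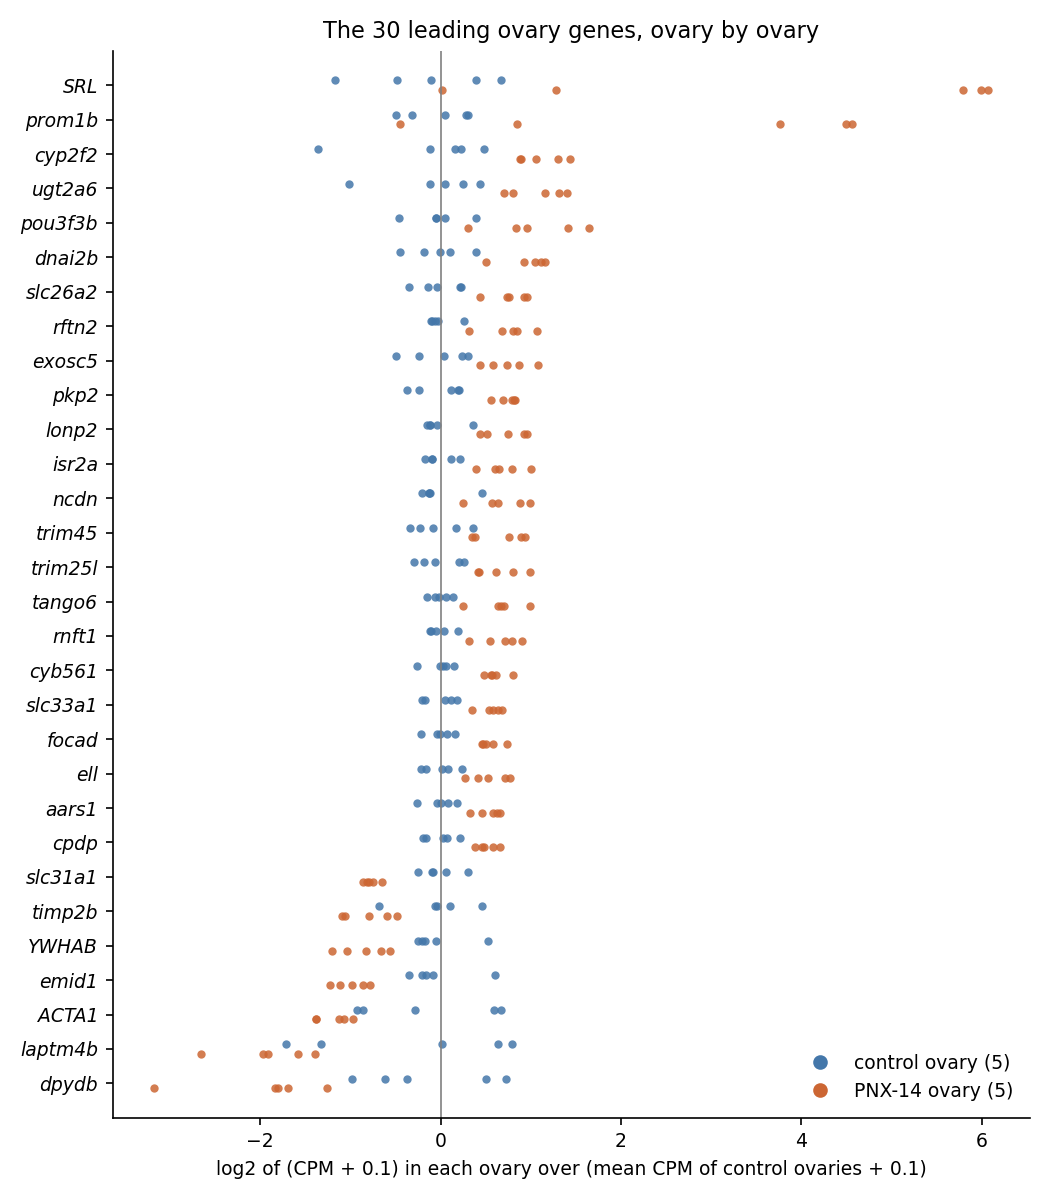
Levels of the 30 genes with the smallest p after trpm1b and safb, 1 gene per row, as the log2 ratio of each ovary's CPM plus 0.1 to the control mean plus 0.1, with each point 1 ovary (5 control, 5 PNX-14). Most genes above 0 shift by less than 1 on the log2 scale with all treated ovaries on the same side, while SRL and prom1b are split, with 3 treated ovaries far to the right and 2 near the controls.

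Differences near or above 1 on the log2 scale were seen in genes of lower level. The axonemal dynein gene dnai2b was at 9.81, 8.69, 12.9, 10.6 and 7.17 CPM in controls and 22.1, 20.5, 14.01, 18.8 and 21.4 CPM after PNX-14, a log2 difference of 0.98 (SE 0.20, adjusted p = 0.359). The transcription factor gene pou3f3b was at 16.3, 15.3, 15.2, 11.5 and 20.8 CPM and 42.4, 30.8, 19.5, 28.4 and 49.8 CPM, a difference of 1.11 (SE 0.24, adjusted p = 0.513). Treated ovary 4 lay within the control range for pou3f3b, and no treated ovary did for dnai2b. The hormone gene ccka, for cholecystokinin, was at 0.690, 0.634, 0.570, 0.734 and 0.247 CPM and 6.15, 1.08, 0.842, 1.42 and 1.79 CPM (1.96, SE 0.58, adjusted p = 0.562), or 1.15 without treated ovary 2, the highest. The gene ssr1, for a subunit of the translocon at the endoplasmic reticulum, differed by 1.30 (SE 0.38, adjusted p = 0.562), and its groups did not overlap.

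Enzymes that oxidise or conjugate small molecules were higher in single cases. The P450 gene cyp2f2 was at 70.3, 73.5, 58.1, 24.4 and 87.4 CPM in control ovaries and 115, 131, 154, 169.7 and 117 CPM in treated ovaries, a log2 difference of 1.13 (SE 0.26, adjusted p = 0.562). An unnamed gene matched to cytochrome P450 2K1, ENSTNIG00000000615, was at 5.52, 7.42, 37.1, 14.9 and 47.1 CPM and 60.05, 133, 69.7, 85.4 and 116 CPM, a difference of 2.04 (SE 0.56, adjusted p = 0.562). In both genes every treated ovary was above every control. Control ovary 5 was the lowest for cyp2f2 and controls 1 and 2 for the unnamed gene. The gene ENSTNIG00000006767, matched to P450 2J6, was at 2.84, 2.44, 12.9, 2.04 and 13.8 CPM and 7.75, 17.4, 14.4, 11.1 and 28.9 CPM (1.22, SE 0.56, adjusted p = 0.623), with overlap. The glucuronosyltransferase gene ugt2a6 was at 6.44, 2.63, 4.97, 7.34 and 5.56 CPM and 8.82, 13.6, 9.49, 12.1 and 14.4 CPM, a difference of 1.11 (SE 0.27, adjusted p = 0.562). Across the list of P450 and conjugation enzymes there was no such shift: 12 of 28 tested genes were higher, the median was -0.04, or -0.17 without treated ovary 2, and 3 were higher and 0 lower at an unadjusted p under 0.05. Of the 22 genes matched to P450 family 2, a group chosen after the values were seen, 11 were tested and 4 were higher. The 3 P450 genes given here were those below an unadjusted p of 0.05 on the higher side (4.05% of all genes). They lie close together on the same strand of unplaced sequence, between positions 22059553 and 22077683. Whether they are separate genes or share reads was not tested, so they may not be independent of each other.

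A few large differences rested on some of the ovaries. The gene SRL, for sarcalumenin, a calcium-binding protein of the muscle sarcoplasmic reticulum, had counts of 11, 5, 4, 2 and 11 in controls and 15, 6, 427, 642 and 484 in treated ovaries, a log2 difference of 5.46 (SE 1.17, adjusted p = 0.562). Treated ovaries 4, 5 and 6 were high and ovaries 2 and 3 within or near the control range. The gene prom1b, for the membrane protein prominin, was at 0.920, 1.45, 1.22, 1.47 and 0.803 CPM and 30.02, 0.831, 17.1, 28.6 and 2.18 CPM, a difference of 3.75 (SE 0.85, adjusted p = 0.562). Here treated ovaries 2, 4 and 5 were high, so the ovaries that were high in SRL and in prom1b were not the same set. For a gene named atp5mf, a subunit of ATP synthase, the levels were 6.21, 3.89, 1.95, 13.7 and 5.07 CPM and 87.3, 6.90, 30.1, 12.6 and 37.8 CPM (2.50, SE 0.70, adjusted p = 0.562), and for MFAP4, a microfibril protein, 24.4, 28.2, 6.68, 12.4 and 12.97 CPM and 40.4, 73.3, 18.4, 93 and 34.6 CPM (1.62, SE 0.46, adjusted p = 0.562).

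Genes that were high in 1 control ovary gave large negative differences. The synapsin gene syn2a was at 3.60, 3.35, 3.50, 3.75 and 99.1 CPM in controls and 4.10, 3.82, 2.07, 3.41 and 3.75 CPM after PNX-14, a log2 difference of -2.73 that was -0.05 without control ovary 6. The phosphatase gene ptprz1a was likewise high in control ovary 6, at 9.58, 4.98, 3.34, 0.408 and 125 CPM against 3.03, 2.99, 1.84, 1.98 and 1.56 CPM. The perforin gene prf1.5 was at 6.44, 3.53, 7.90, 105 and 19.8 CPM and 5.97, 4.07, 4.21, 6.25 and 3.51 CPM, with control ovary 5 highest. The matrix gene IMPG1 was at 0.997, 89.7, 1.79, 0.490 and 2.59 CPM in controls and 1.87, 1.91, 0.306, 1.24 and 0.780 CPM after PNX-14, high in control ovary 2 alone. Over all genes tested, 57 were at least 4 times as high in 1 ovary as in every other, with more than 5 CPM there, and 16 of these were in control ovary 6.

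Among the genes that were lower, slc31a1, the copper importer, had the smallest p. It was at 31.1, 40.5, 34.1, 27.7 and 30.8 CPM in control ovaries and 20.9, 18.5, 19.5, 18.9 and 18.1 CPM in treated ovaries, a log2 difference of -0.77 (SE 0.15, adjusted p = 0.359). Treated ovaries lay within a narrow band, all below the lowest control. The matrix gene emid1 was at 8.28, 9.05, 7.49, 8.57 and 14.6 CPM and 5.52, 4.82, 4.36, 5.26 and 4.06 CPM, a difference of -1.0 (SE 0.24, adjusted p = 0.562), also with no overlap. For YWHAB, a 14-3-3 adaptor protein, the levels were 14.6, 12.7, 13.4, 13.1 and 21.7 CPM and 8.46, 7.32, 9.49, 10.2 and 6.48 CPM (-0.85, SE 0.22, adjusted p = 0.562). Control ovary 6 was the highest for both emid1 and YWHAB.

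The pyrimidine breakdown gene dpydb was low in every ovary. Its level was 2.22, 4.89, 1.87, 4.16 and 1.42 CPM in controls and 1.16, 0.831, 0.765, 0.743 and 0.234 CPM after PNX-14, a log2 difference of -1.95 (SE 0.47, adjusted p = 0.562), with no overlap. The lysosomal membrane gene laptm4b was at 8.82, 3.44, 13.7, 15.2 and 2.59 CPM and 2.85, 2.24, 1.30, 2.17 and 3.28 CPM, a difference of -1.88 (SE 0.47, adjusted p = 0.562). Controls 1, 3 and 5 were high and controls 2 and 6 near the treated ovaries. Low genes with no overlap were tmc8, a membrane channel-like gene (-1.32), bach1b, a repressor that binds haem (-1.24), and cacna1, a calcium channel subunit (-1.25). The amino acid transporter gene slc43a3b differed by -1.83, with 4.14, 5.16, 5.86, 3.26 and 26.3 CPM in controls, and by -0.87 without control ovary 6.

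Genes encoded in mitochondrial DNA had lower levels by mean. All 11 tested respiratory chain genes of the mitochondrial genome had a negative log2 difference, 7 of them at an unadjusted p under 0.05 (3.93% of all genes). Whether these genes vary independently of each other was not tested, so the 7 may not be separate results. Their median was -0.57 against -0.02 for all genes tested. Their summed level was 15627, 17832, 24095, 15339.8 and 21569 CPM in control ovaries and 12794, 12768, 14813, 13975 and 10830.5 CPM in treated ovaries. The groups did not overlap, but control ovaries 1 and 5 were close to treated ovary 4, and control ovaries 3 and 6 were highest. The cytochrome oxidase gene mt-co2 was at 3892, 3504, 5256, 3944 and 3996 CPM in controls and 3017, 2786, 3381, 2757 and 2359 CPM after PNX-14 (-0.53, SE 0.16, adjusted p = 0.562) and was the only gene of the set whose groups did not overlap. The log2 difference was -0.44 for mt-co1 and -0.57 for mt-co3, both of cytochrome oxidase, -0.67 for mt-cyb of the cytochrome bc1 complex, -0.65 for mt-nd4 of complex I and -0.77 for mt-atp6 of ATP synthase. For mt-nd1 it was -1.0, and the files place that gene on unplaced sequence and not on the mitochondrial genome. The median ran from -0.71 to -0.44 when any 1 ovary was left out. The libraries were made from poly(A) RNA.

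For nuclear genes of the same respiratory complexes the median stayed positive in every setting, but its size depended on the library left out. Of 81 tested, 54 had a positive log2 difference, the median was 0.10, and 7 were higher and 3 lower at an unadjusted p under 0.05, where 4.05% and 3.93% of all genes were. Without control ovary 5 the median was 0.0048, and without treated ovary 5 it was 0.19. Higher by mean were cox7b of cytochrome oxidase (0.69, SE 0.21, adjusted p = 0.562) and cycsb, a cytochrome c (0.57, SE 0.20, adjusted p = 0.564). Lower was SDHB, the iron-sulfur subunit of succinate dehydrogenase, at 164, 194, 179.6, 137 and 143 CPM in controls and 91.2, 128, 133, 97.6 and 122.7 CPM after PNX-14 (-0.51, SE 0.15, adjusted p = 0.562), with no overlap. Genes of the mitochondrial ribosome were near the background, with a median of 0.04 over 58 genes that was -0.09 without treated ovary 2. Of 75 cytosolic ribosomal protein genes 25 were higher and the median was -0.12, with 6 lower and 0 higher at an unadjusted p under 0.05 (3.93% and 4.05% of all genes), among them rpl18 (-0.58) and rps10 (-0.50). That median was -0.012 without control ovary 2 and -0.26 without treated ovary 2.

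**Figure D2:**
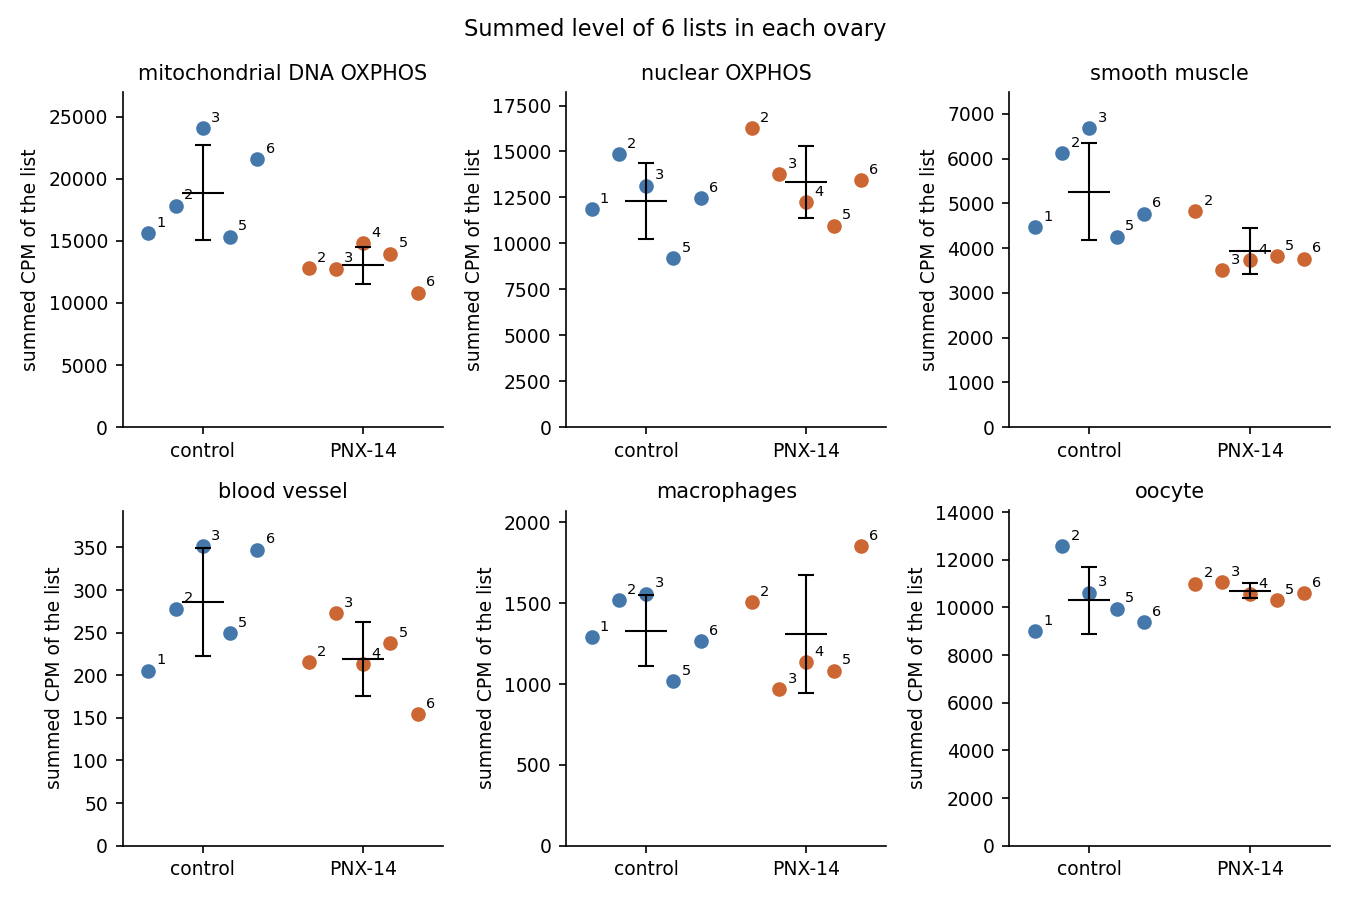
Summed CPM of 6 gene lists in each ovary, with numbers naming the library and black bars the mean and SD of 5 ovaries. For the genes of mitochondrial DNA all treated ovaries lie below all controls, and in the other panels the groups overlap.

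Genes of the muscular and vascular stroma were lower by median. Of 16 smooth muscle genes tested, 13 had a negative log2 difference, with a median of -0.27. At an unadjusted p under 0.05, 6 were lower and 1 higher (3.93% and 4.05% of all genes). The smooth muscle actin gene acta2 was at 1448, 2677, 3058, 1919 and 2118 CPM in controls and 1522, 1379, 1323, 1485 and 1495 CPM after PNX-14, a difference of -0.64 (SE 0.19, adjusted p = 0.562). Treated ovaries lay close together near the lowest control, ovary 1. Without treated ovary 2 the median of the list was -0.43. The log2 difference was -0.52 for tagln, an actin-binding protein, -0.46 for myh11a (ENSTNIG00000012065), the smooth muscle myosin, -0.51 for smtna, a smoothelin, and -0.67 for SYNPO2, a synaptopodin of the actin bundle. A pair of genes named ACTA1, from the skeletal muscle list, were lower by mean too. ENSTNIG00000017237 was at 69.1, 103, 199.7, 189 and 65.9 CPM and 63.8, 48.1, 59.5, 48.2 and 57.4 CPM (-1.18, SE 0.29, adjusted p = 0.562), and ENSTNIG00000012219 at 94.5, 179.7, 526, 191 and 109.6 CPM and 63.5, 90.3, 89.4, 66.9 and 57.3 CPM (-1.58, SE 0.42, adjusted p = 0.562), both with no overlap. Control ovary 3 was highest in both and ovary 5 next, and without control ovary 3 the second gene differed by -0.97. Reads may be shared among near-identical actins, so these genes are not independent of each other or of acta2.

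All 18 blood vessel genes tested had a negative log2 difference, with a median of -0.45 and 3 at an unadjusted p under 0.05 (3.93% of all genes). They were pecam1, an adhesion protein of the endothelium (-0.71, SE 0.27, adjusted p = 0.586), podxl, a sialomucin (-0.58, SE 0.26, adjusted p = 0.61), and acvrl1, an endothelial receptor of BMP9 (-0.57, SE 0.26, adjusted p = 0.623). The transcription factor gene fli1a differed by -0.61 (SE 0.32, adjusted p = 0.675). The summed level of the vessel list overlapped between groups, at 205 to 351 CPM in controls and 154 to 273 CPM after PNX-14. Without control ovary 6 the median was -0.18, and without control ovary 1 it was -0.53.

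Matrix genes were lower more often than higher. Of 99 genes of matrix glycoproteins, integrins and proteases, 17 were lower and 4 higher at an unadjusted p under 0.05 (3.93% and 4.05% of all genes). The median was -0.16. The inhibitor of matrix proteases timp2b was at 51.1, 87.98, 78.8, 79.6 and 112 CPM in controls and 47.1, 39.4, 54.5, 58.6 and 38.3 CPM after PNX-14, a difference of -0.78 (SE 0.20, adjusted p = 0.562), and only control ovary 1 fell within the treated range. The elastic fibre gene fbln5 was at 38.8, 31.95, 38.3, 23.1 and 60.1 CPM and 26.8, 20.5, 20.9, 19.4 and 22.5 CPM (-0.80, SE 0.22, adjusted p = 0.562), and dcn, the proteoglycan decorin, at 40.2, 26.3, 52.7, 23.7 and 41.3 CPM and 24.5, 21.03, 21.5, 20.4 and 23.2 CPM (-0.74, SE 0.21, adjusted p = 0.562). In both genes the treated ovaries varied little and lay at or below the lower controls. The basement membrane gene nid2a differed by -0.66. Against this direction stood MFAP4, given above, and itgb6, an integrin of epithelial cells (0.46, SE 0.20, adjusted p = 0.61). Of 36 collagen genes 16 were higher, with a median of -0.08 that was 0.01 without control ovary 5. The fibril collagen gene col1a1b differed by -0.54 (SE 0.24, adjusted p = 0.61), col6a1 and col6a2 of the microfibrils by -0.47 and -0.69, and col7a1 of anchoring fibrils by 0.87 (SE 0.34, adjusted p = 0.586).

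Immune cell genes were lower by median, with control ovary 6 the highest for many. Of 33 macrophage genes, 27 had a negative log2 difference. The median was -0.54, or -0.12 without control ovary 6 and -0.69 without control ovary 1. For spi1b, which drives myeloid cell fate, the level was 3.14, 5.70, 5.29, 3.84 and 13.7 CPM in controls and 3.74, 2.66, 3.37, 2.54 and 4.21 CPM after PNX-14 (-0.94, SE 0.38, adjusted p = 0.594). Of the other controls, ovaries 1 and 5 lay within the treated range and ovaries 2 and 3 above it. The same ovary was highest for p2ry12, a purine receptor (-1.40), itgb2, the leukocyte integrin (-0.95), csf3r, the granulocyte factor receptor (-1.37), ptpn6, a phosphatase of blood cells (-1.14), cxcr4b, a chemokine receptor (-1.27), and il16 (-1.08). Without control ovary 6 the differences were -0.44 for spi1b, -0.60 for p2ry12, -0.28 for itgb2, -0.74 for csf3r, -0.49 for ptpn6, -0.65 for cxcr4b and -0.70 for il16. The lysosomal protease gene lgmn was high in controls 5 and 6, at 8.28, 16.7, 19.5, 49.5 and 55.5 CPM against 5.26, 5.65, 16, 17.6 and 9.52 CPM. The cathepsin S gene ctss2.1, 1 of 6 macrophage genes that were higher by mean, was lowest in control ovary 6. It was at 801, 912, 872, 466 and 147 CPM in controls and 893, 484, 592, 490 and 1246 CPM after PNX-14 (0.21, SE 0.43, adjusted p = 0.944). The summed level of macrophage genes overlapped between groups, at 1018 to 1559 CPM in controls and 970.1 to 1851 CPM after PNX-14. A large part of that sum was ctss2.1, with 801 of 1291 CPM in control ovary 1.

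Of 14 T and NK cell genes the median was -0.45, or -0.06 without control ovary 6 and -0.61 without treated ovary 2. It was -0.08 when each library had to hold 10 or more counts of a gene, and -0.28 with limma-voom. The T cell kinase gene itk ran the other way, at 6.98, 5.70, 6.84, 10.3 and 10.6 CPM in controls and 17.8, 19.2, 16.99, 5.14 and 15.1 CPM after PNX-14 (0.87, SE 0.32, adjusted p = 0.569), with treated ovary 5 below every control. Of 28 cytokine and chemokine genes 6 were lower and 0 higher at an unadjusted p under 0.05 (3.93% and 4.05% of all genes). Among the lower was ackr4a, a scavenger of chemokines (-1.51), and the median of the list was -0.16, or -0.37 without treated ovary 2. Whether the lower levels of vessel, muscle, matrix and immune genes share a source was not tested.

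**Figure D3:**
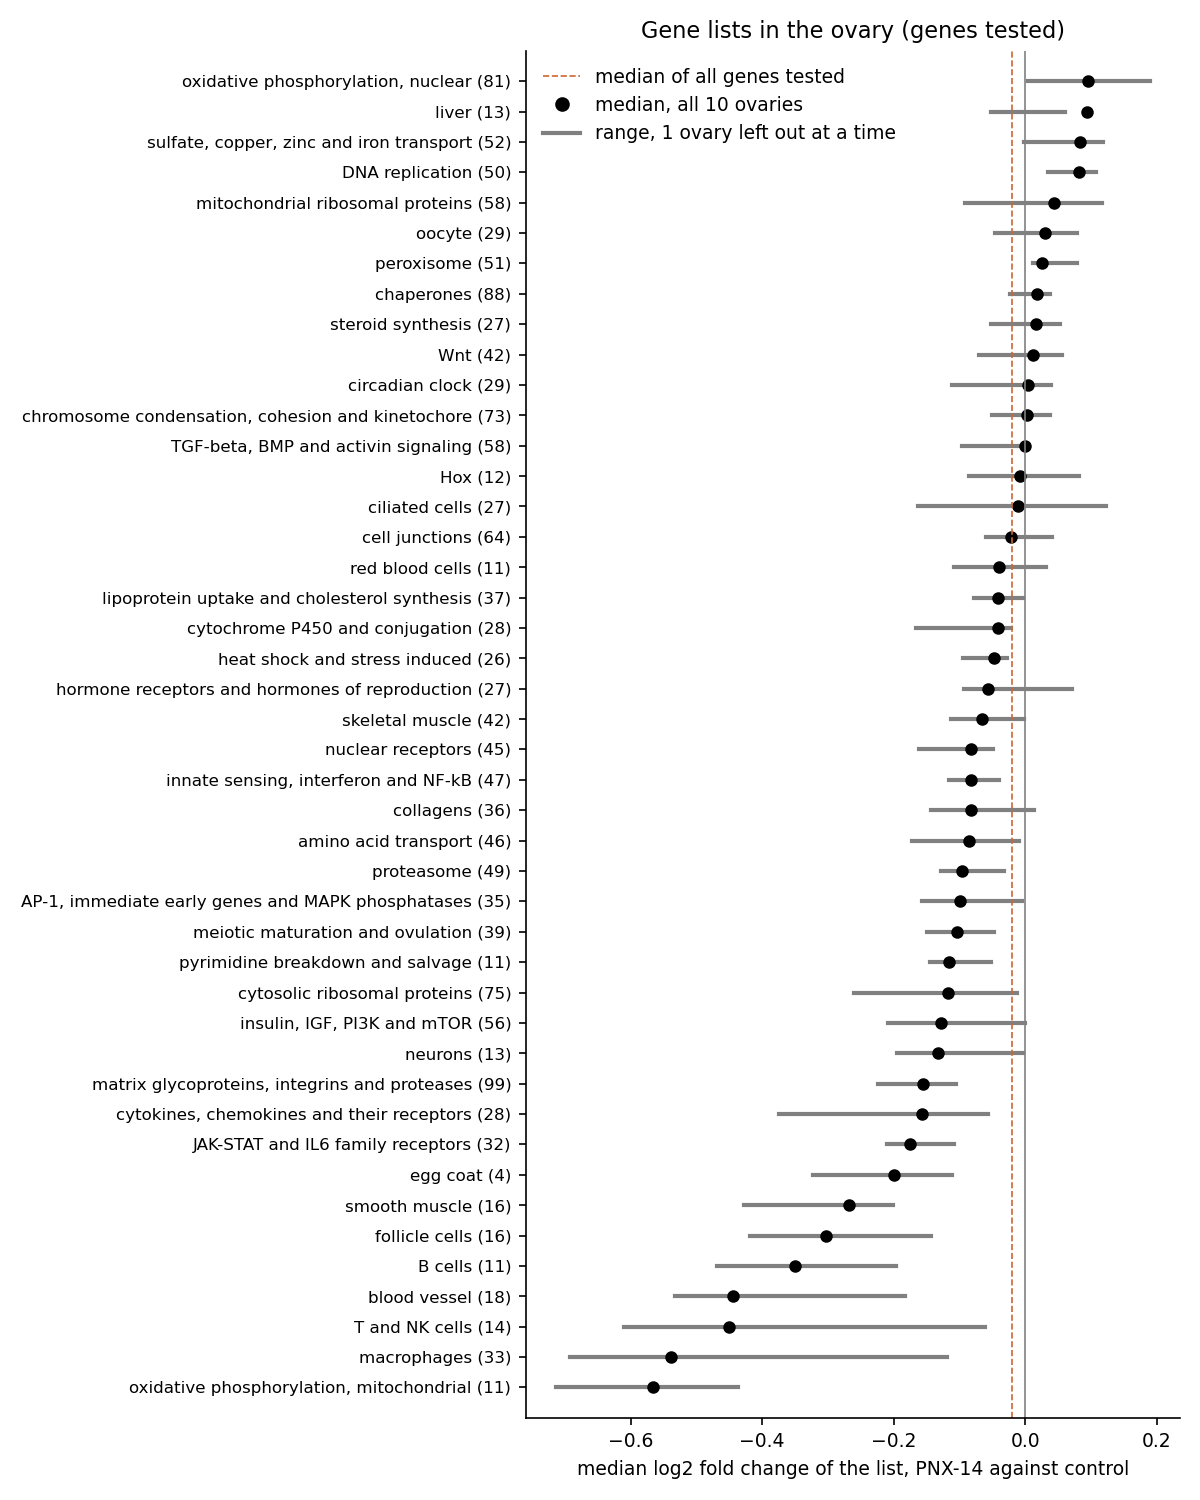
Median log2 fold change of each of 44 gene lists, with the number of genes tested in brackets and grey bars for the range of the median when 1 ovary at a time is left out. Genes of mitochondrial DNA, macrophages, T and NK cells, vessels, B cells, follicle cells and smooth muscle lie lowest, and the median of all genes tested is -0.02.

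Oocyte genes as a list stayed close to the background. Of 29 tested, 15 were higher, and the median was 0.03 against -0.02 for all genes tested. The sign of that median changed in 6 of 17 other settings. Among these were no filter, DESeq2, the replicate number as a block and leaving out control ovary 6. Before adjustment, 5 oocyte genes fell below a p of 0.05 on the higher side and 0 on the lower side (4.05% and 3.93% of all genes). The oocyte growth factor gene bmp15 was at 381, 438, 370.5, 392 and 482 CPM in control ovaries and 544, 625.2, 504, 567 and 541 CPM in treated ovaries, a log2 difference of 0.43 (SE 0.12, adjusted p = 0.562). The groups did not overlap, and control ovary 6 was the control nearest to the treated ovaries. The RNA-binding protein gene larp6a was at 863, 1154, 641, 1018 and 591 CPM and 1297, 1359, 1140.3, 1268 and 1191 CPM (0.55, SE 0.19, adjusted p = 0.562), where controls 3 and 6 were low and control 2 overlapped with treated ovary 4. The pluripotency factor gene pou5f3 differed by 0.48 (SE 0.17, adjusted p = 0.565), and the germ cell RNA-binding genes dnd1 and nanos3 by 0.88 (SE 0.32, adjusted p = 0.569) and 0.42 (SE 0.19, adjusted p = 0.623). Of 4 egg envelope genes 0 were higher, the median was -0.20, and it was -0.32 without control ovary 6, with none at an unadjusted p under 0.05. Controls varied more than treated ovaries for zpax1, which was at 7630.3, 11029, 13497, 11473 and 5871 CPM and 8259.6, 9078, 8343, 7876 and 8414 CPM, and the differences of zp2l2, zpax1 and zp3f.1 were -0.33, -0.24 and -0.04. Of 39 genes of meiotic maturation and ovulation, 12 were higher and 27 lower, with a median of -0.10. At an unadjusted p under 0.05, 1 was higher and 2 lower (4.05% and 3.93% of all genes). In this list pgrmc1, a membrane component of progestin response, was higher by mean (0.49, SE 0.17, adjusted p = 0.564). The gene spdya, for an activator of cyclin-dependent kinases, was lower (-0.38, SE 0.16, adjusted p = 0.597).

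For follicle cell genes the median stayed negative in every setting, but its size depended on the library left out. Of 16 follicle cell genes 13 had a negative log2 difference. The median was -0.30, or -0.14 without control ovary 6 and -0.42 without control ovary 1. Just 1 was lower at an unadjusted p under 0.05 (3.93% of all genes). That was NR0B1, a nuclear receptor that represses steroid genes, at 11.7, 42.4, 26.3, 19.8 and 48.7 CPM in controls and 18.8, 22.5, 11.2, 13.3 and 11.9 CPM after PNX-14 (-0.94, SE 0.35, adjusted p = 0.569). Controls 2 and 6 were high, and control 1 lay within the treated range, near its lower end. The granulosa gene foxl2a (-0.47) and hsd17b1, which makes oestradiol from oestrone (-0.38), had the same order among controls, with ovary 6 highest and ovary 1 lowest. Other genes of the list were wt1b (-0.36) and gata6 (-0.47), transcription factors of the gonad. Without control ovary 6 the differences were -0.25 for foxl2a, -0.14 for hsd17b1, -0.19 for wt1b and -0.24 for gata6.

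Of 27 steroid synthesis genes 4 were higher and 2 lower at an unadjusted p under 0.05 (4.05% and 3.93% of all genes), with a median of 0.02. The first enzyme of the pathway, the side-chain cleavage enzyme cyp11a2, was at 11.96, 59.8, 47.1, 42.7 and 65.2 CPM in controls and 26.1, 26.2, 26.5, 23.2 and 14.1 CPM after PNX-14 (-0.97, SE 0.35, adjusted p = 0.565). Control ovary 1 lay below every treated ovary, and the other 4 controls lay above all of them. Genes that were higher by mean were hsd17b7, an enzyme of oestradiol and cholesterol synthesis, at 3.53, 2.63, 2.36, 1.96 and 3.89 CPM and 4.99, 6.48, 3.44, 3.72 and 6.48 CPM (0.80, SE 0.30, adjusted p = 0.575), srd5a2a, a steroid reductase (0.52, SE 0.21, adjusted p = 0.588), and srd5a3 (0.47, SE 0.19, adjusted p = 0.594), while the sulfotransferase gene sult1st6 was lower (-1.14, SE 0.44, adjusted p = 0.586). The receptor genes pgr, for progestin, and prlrb, for prolactin, differed by -0.60 (SE 0.28, adjusted p = 0.623) and -0.83 (SE 0.37, adjusted p = 0.61), the latter with control ovary 2 far above the others and -0.43 without it. Of 37 genes of lipoprotein uptake and cholesterol synthesis, 16 were higher and 21 lower, with a median of -0.04. At an unadjusted p under 0.05, 1 was higher and 0 lower (4.05% and 3.93% of all genes). Of the lipoprotein receptors, lrp8 (ENSTNIG00000010063), related to the vitellogenin receptor, was at 83.96, 107, 72.9, 105 and 83.1 CPM and 135, 136, 107, 147 and 127.5 CPM (0.53, SE 0.14, adjusted p = 0.562). Its groups did not overlap, though control 2 and treated ovary 4 nearly met. The gene vldlr, counted among the vitellogenin receptors in other fish, differed by -0.12 (SE 0.20, adjusted p = 0.924).

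Genes of TGF-beta and BMP signaling were spread to both sides. The TGF-beta and BMP list held 58 genes, 29 of them with a positive log2 difference, and had a median of -0.0004. At an unadjusted p under 0.05, 3 genes were higher and 4 lower (4.05% and 3.93% of all genes). The repressor gene tgif1 was at 64.6, 54.9, 54.1, 59.6 and 63.2 CPM in controls and 82.6, 74.2, 74.4, 72.8 and 92.8 CPM after PNX-14 (0.42, SE 0.12, adjusted p = 0.562), and the ubiquitin ligase smurf1 was also higher by mean (0.48). Lower were LTBP3, which stores latent TGF-beta in the matrix, at 5.29, 4.89, 5.78, 4.81 and 6.49 CPM and 3.83, 2.66, 4.13, 3.59 and 2.65 CPM (-0.69, SE 0.24, adjusted p = 0.564), with no overlap, and SMAD3, which carries the signal to the nucleus (-0.37). The ligand gene tgfb1a and the receptor gene tgfbr2a differed by -0.54 (SE 0.28, adjusted p = 0.675) and -0.33 (SE 0.33, adjusted p = 0.847). The related receptor gene tgfbr2b was not lower, with a difference of 0.05 (SE 0.15, adjusted p = 0.966). Its treated mean, 94.6 CPM, lay close to its control mean of 91.6 CPM, and the groups overlapped.

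The list of insulin, IGF, PI3 kinase and mTOR genes held 56 genes, 18 of them higher and 38 lower. Its median was -0.13, or 0.0002 without control ovary 5. At an unadjusted p under 0.05, 1 was higher and 4 lower (4.05% and 3.93% of all genes). The higher gene was pik3r3, a regulatory subunit of PI3 kinase (0.53, SE 0.16, adjusted p = 0.562). The lower genes were mtor, the kinase of growth control (-0.46, SE 0.17, adjusted p = 0.569), ptena, the phosphatase that opposes PI3 kinase (-0.46, SE 0.17, adjusted p = 0.569), SGK1 (-0.55, SE 0.22, adjusted p = 0.588) and akt2 (-0.38, SE 0.17, adjusted p = 0.616). The spelling isr2a kept that gene, given above, out of the list. In the JAK-STAT list 8 of 32 genes were higher and the median was -0.17, or -0.11 without control ovary 5. The transcription factor gene stat1a differed by -0.48 (SE 0.20, adjusted p = 0.594), and the kinase genes tyk2, jak1 and jak3 by -0.08 (SE 0.20, adjusted p = 0.959), -0.22 (SE 0.17, adjusted p = 0.778) and -0.53 (SE 0.39, adjusted p = 0.768). Of the immediate early genes, fosab was at 98.6, 103, 135, 152 and 103 CPM in controls and 70.5, 87.8, 97.8, 95.2 and 97.6 CPM after PNX-14 (-0.40, SE 0.15, adjusted p = 0.586), with no overlap, and egr1 was high in control ovary 5 alone (-1.77, or -0.64 without it). The MAP kinase phosphatase genes dusp2 and dusp16 were higher by mean (0.65 and 0.36, adjusted p = 0.562 and 0.569). In the list of AP-1, immediate early and MAP kinase phosphatase genes, 13 of 35 were higher and 22 lower, with a median of -0.10.

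Peroxisome genes were higher more often than lower among those at an unadjusted p under 0.05, 8 against 2 of 51 (4.05% and 3.93% of all genes). Their median was still only 0.03. Besides lonp2 the higher genes included pex6, which recycles the import receptor, at 10.5, 15.8, 14.01, 12 and 11.3 CPM in controls and 18.4, 17.1, 17.99, 17.3 and 19.3 CPM after PNX-14 (0.50, SE 0.17, adjusted p = 0.562), with no overlap. The oxidation enzymes acox3 and ehhadh differed by 0.51 (SE 0.18, adjusted p = 0.564) and 0.60 (SE 0.22, adjusted p = 0.569), and far1, which starts ether lipid synthesis, by -0.37 (SE 0.15, adjusted p = 0.588). Chaperone genes had a median of 0.02, with 48 of 88 higher and 40 lower. Those below an unadjusted p of 0.05 numbered 7 on the higher side and 2 on the lower side (4.05% and 3.93% of all genes). The 2 on the lower side were the small heat shock proteins hspb8 (-0.92, SE 0.28, adjusted p = 0.562) and hspb1 (-0.81, SE 0.28, adjusted p = 0.562). A chaperone of the endoplasmic reticulum, hspa13, was higher by mean (0.44, SE 0.15, adjusted p = 0.562). Of stress genes, HMOX1, which breaks down haem, differed by -1.0 (SE 0.34, adjusted p = 0.562) and GADD45B by 0.66 (SE 0.21, adjusted p = 0.562).

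The genes on both sides differed in where they were expressed. The ratio of a gene's mean FPKM in the 10 ovaries to its median FPKM in the 12 hypothalami, with 0.1 added to both, had a median log2 of -0.02 over all genes tested. For the 599 genes higher at an unadjusted p under 0.05 the median was 1.05, and 51.8% of them were more than 2-fold higher in ovary, against 29.5% of all genes tested. For the 581 lower genes the median was -0.50, and 23.1% were more than 2-fold higher in ovary. The egg envelope gene zp3f.1 was at 448 ± 434 CPM (SD, n = 6) in control hypothalami, so reads of an ovary gene were present there. With the lowest hypothalamus in place of the median, a choice made after seeing the data, the medians were 0.47 for all genes, 1.56 for the higher and 0.10 for the lower genes. The higher genes were also more abundant in ovary, with a median of 44.2 FPKM against 17.3 FPKM for all genes tested and 13.4 FPKM for the lower genes. Differences were smaller among them, since 10.9% of the higher and 20.5% of the lower genes exceeded 2-fold. The part of expression level in these shares was not tested.

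**Figure D4:**
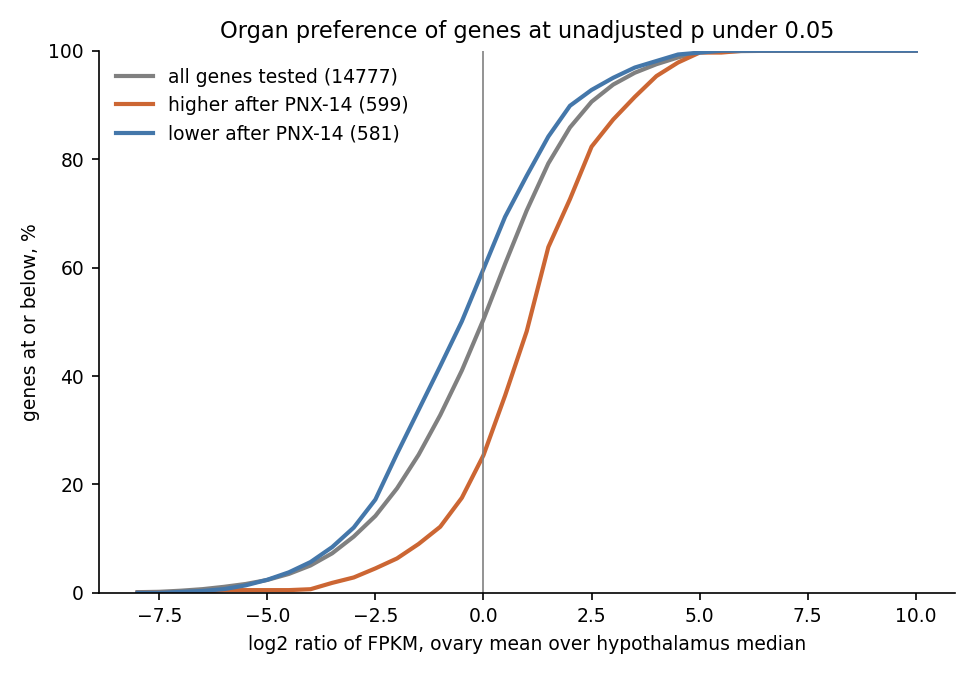
Share of genes (vertical axis, percent) at or below a given log2 ratio of ovary to hypothalamus FPKM (horizontal axis), for all genes tested and for genes higher or lower after PNX-14 at an unadjusted p under 0.05. The curve of the higher genes lies to the right of that of all genes and the curve of the lower genes to the left, with medians of 1.05, -0.02 and -0.50.

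Over all genes tested, treated ovaries were closer to each other than control ovaries were. The root mean square distance in log2 CPM over the genes tested was 0.596 to 0.751 in the 10 pairs of treated ovaries (median 0.641) and 0.651 to 0.913 in the 10 pairs of controls (median 0.751). The mean distance of an ovary to the other 4 of its group was 0.757 ± 0.0493 in controls and 0.657 ± 0.0276 after PNX-14 (SD, n = 5 each), a difference of -0.10 (exact permutation test over these mean distances, two-sided p = 0.0159, smallest possible 0.00794). The test shuffled the finished mean distances and did not recompute them for each relabeling of the ovaries. The ovaries of a group also share their pairs, so a p of this test is not one over independent values. Over the 500 most variable genes the difference of -0.103 missed the threshold (exact permutation test, two-sided p = 0.0556). The mean distances over these genes were larger, 2.11 in controls and 2.01 after PNX-14, so that difference was smaller relative to them. Leaving out any 1 ovary kept the difference between -0.15 and -0.07. The SDs of single genes restate these distances, since both come from the same log2 CPM values. The SD was larger among controls in 65.5% of genes, with a median of 0.37 against 0.29. On the first 2 principal components, which held 23.3% and 15.9% of the variance, control ovaries 5 and 6 lay at opposite ends of the first and the groups overlapped. The number of genes with at least 1 read was 17015 to 17810 in controls and 17623 to 17915 in treated ovaries, a mean difference of 221.2 genes (exact permutation test, two-sided p = 0.159).

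**Figure D5:**
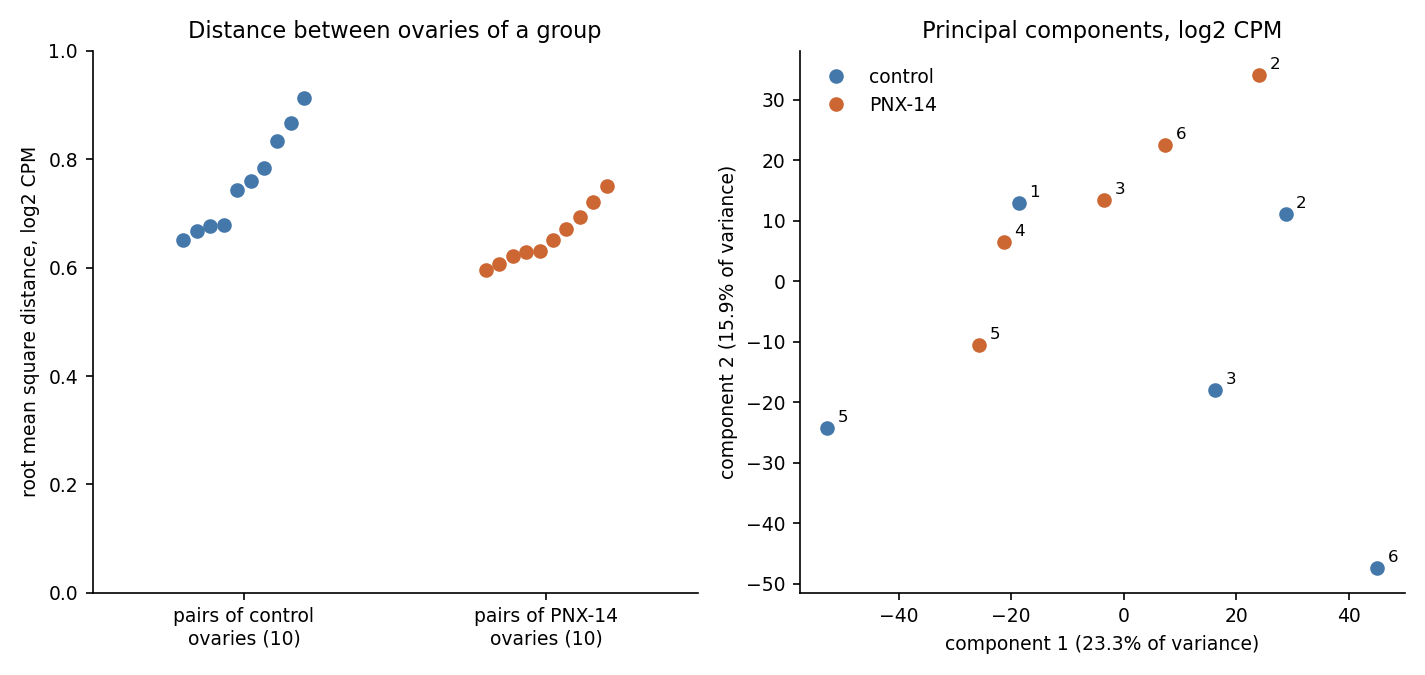
Left, root mean square distance in log2 CPM between ovaries of the same group, with each point 1 of 10 pairs. Right, the first 2 principal components of log2 CPM, numbered by library. Pairs of controls reach 0.913 and pairs of treated ovaries 0.751, and control ovaries 5 and 6 lie farthest apart.

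The response of the ovary was set against that of the hypothalamus by an interaction over all 22 libraries. Of 17612 genes tested, 1 passed an adjusted p of 0.05 (0.00568%), trpm1b, whose log2 difference after PNX-14 was larger in ovary by 4.77 (adjusted p = 6.15e-07). The leading ovary genes slc26a2, rftn2, pkp2 and isr2a had log2 differences of -0.08, 0.02, -0.37 and -0.17 in the hypothalamus, and the difference between organs had an adjusted p of 0.777, 0.597, 0.924 and 0.966. For slc31a1 the hypothalamus difference was -0.63, beside -0.77 in ovary, and the organs differed by -0.10 (adjusted p = 0.987). Genes of mitochondrial DNA were lower by mean in both organs: mt-co2 differed by -0.43 in the hypothalamus and mt-cyb by -0.34, and the organs differed by -0.07 and -0.30 (adjusted p = 0.988 and 0.956). For spi1b the difference was 0.30 in the hypothalamus and -0.94 in ovary, and the organs differed by -1.21 (adjusted p = 0.729).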

How the data were processed

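RNA was sequenced from 10 ovaries and 12 hypothalami. The authors made stranded poly(A) libraries, trimmed reads with fastp, aligned them with HISAT2 to the Ensembl puffer genome (TETRAODON 8.0) and counted reads per gene with featureCounts, in versions not given in the sources used here. Whether counting used the strand is not given either, so overlapping and antisense genes and near-identical copies may share reads. In the deposited tables the read counts are raw whole numbers. The authors also gave FPKM, in which length and depth are divided out. The authors' own comparison columns (log2 fold changes, p-values and adjusted p-values) and 22 columns of counts divided by size factors were not used. Samples were grouped by the labels, which name organ and treatment; a replicate is a library of its own.

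On the ovaries alone, edgeR 4.0.16 in R 4.3.3 was run with its filterByExpr, TMM factors and the robust quasi-likelihood test, with Benjamini-Hochberg adjustment over all genes tested. SD is over the ovaries of a group. Distances and components used log2 CPM with a prior count of 2. The organ difference was an interaction term over 22 libraries. Alternatives were RLE scaling, no filter, at least 10 counts in every sample, DESeq2 1.42.0, limma 3.58.1 (voom), the replicate number as a block, all libraries in one fit and leaving out each library. The gene tests were tested on simulated data. The sources do not say that a shared number marks a shared fish, litter or day. The deviations of same-numbered ovaries had correlations of 0.14, 0.04, 0.32 and 0.09, too few values to decide whether numbers pair ovaries. The main fit did not use the numbers as pairs.

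The members, the 45 gene lists and the tests were chosen with earlier results of these data known. The files gave symbols for 14512 ovary genes, and 209 more were read from the supplement. Genes named are, besides trpm1b and safb, the 30 with the smallest p, up to 5 by p and 3 by FPKM of each list, the 10 highest in FPKM, genes with at most 1 count in every library of a group and at least 5 in every library of the other, the 10 largest differences without overlap, 5 in each direction, the 10 strongest loadings at each end of the first component and 18 genes the study discussed; those described are a subset. The unnamed gene matched to P450 2J6 was chosen after its values were seen. The list of phoenixin and its receptors had no gene with enough reads. No genome sequence was used, so none is printed.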

Additional observations from a re-analysis of the deposited data

Results flagged for a closer look

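In 31 of 302 sets of 5 values, 1 ovary lay farther from the other 4 of its group than Dixon's 95% value of 0.71 allows. For independent, normal values chance would flag about 1 in 20. Many sets were CPM of genes chosen by their values in these same data, so the 31 flags cannot be set against that rate. Control ovary 6 was the one apart in CPM for ncdn (462), ptprz1a (125), syn2a (99.1), slc43a3b (26.3), YWHAB (21.7), ptpn6 (19.4), emid1 (14.6), spi1b (13.7), cxcr4b (13.1), itgb2 (12.5), p2ry12 (10.3) and bach1b (4.32), each time as the highest control. Control ovary 2 was highest in CPM for lonp2 (322), rftn2 (93.4), IMPG1 (89.7) and prlrb (8.96), and it had the fewest genes detected (17015). Control ovary 3 was highest in CPM for mt-co2 (5256) and for ACTA1 (ENSTNIG00000012219, 526), and control ovary 5 for prf1.5 (105) and egr1 (9.14).

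Among treated ovaries, ovary 2 stood apart in CPM for ccka (6.15) and for the summed smooth muscle genes (4826), both high. Ovary 3 was apart for mt-nd4 (1061) and ssr1 (6.82), both high, and for SGK1 (5.90), which was low. Ovary 4 was high for akt2 (16.2) and slc43a3b (3.44). Ovary 5 was low for itk (5.14), and ovary 6 low for cyp11a2 (14.1) and acvrl1 (8.82). Between organs, trpm1b differed in its log2 response by 4.77, with the ovary higher (edgeR's interaction test, adjusted p = 6.15e-07).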

How the results depend on the processing

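The count of 2 ovary genes at an adjusted p under 0.05 was 2 with RLE scaling, without the filter and with limma-voom, 31 with DESeq2, 5 with all 22 libraries in one fit, and 0 with at least 10 counts in every sample, which removes trpm1b and safb. Leaving out 1 ovary gave 2 to 3. With the replicate number as a block the count was 10, and whether the numbers pair the ovaries is not known. Of 138 genes with a fit named here, tgfbr2b and ctss2.1 not counted, 26 passed an adjusted p of 0.05 with DESeq2. The count at an unadjusted p under 0.05 was 2039 with all 22 libraries and 802 to 1470 when 1 ovary was left out. The count of genes whose groups did not overlap was 263 to 443 when 1 ovary was left out, with fewer values to overlap. The organ difference had 26 genes with DESeq2, 2 with limma-voom, 0 with at least 10 counts in every sample and 1 to 4 when 1 library was left out.

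The difference in genes detected was -63.8 when at least 10 counts were asked for, and 82.7 to 281.45 when 1 ovary was left out. The difference in spread was -0.103 over the 500 most variable genes (exact permutation test, p = 0.0556), where the mean distances were 2.11 in controls and 2.01 after PNX-14. Over all genes tested it was -0.146 to -0.0687 when 1 ovary was left out. Of the named genes other than tgfbr2b and ctss2.1, 3 had an opposite sign in some setting, and the cause was not tested. They were zp3f.1 (0.00697 with limma-voom, and -0.143 to 0.171 when 1 ovary was left out), vldlr (-0.266 to 0.0442) and tyk2 (0.00209 with the block, and -0.181 to 0.0524). The differences of tgfbr2b and ctss2.1 also changed sign, at -0.0175 to 0.112 and -0.0571 to 0.361 when 1 ovary was left out. Of 44 lists with a tested gene, 19 had a median of the opposite sign in some setting. The part of depth in the single-gene results was not tested.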
